A study of Homo sapiens with 2 samples.

Results

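The genes described here are 3 receptors of the EGF family, EGFR, ERBB2 and ERBB3, and 7 of its ligands, NRG1, AREG, EREG, HBEGF, BTC, EGF and TGFA. They are 10 of the 26518 genes that had a row in both deposited files. The members were chosen by symbol, and each gene was taken as its annotated RefSeq transcripts plus every stranded transcript, assembled from the reads, that shared an intron with it. That gave 43 transcripts in each library, of which 34 were annotated and 9 were assembled. RNA was sequenced from A549, an established line of human non-small cell lung cancer, in 2 states. Control cells carried shLacZ, a short hairpin RNA aimed at the bacterial gene LacZ. Knockdown cells carried shPSPC1, a hairpin aimed at PSPC1, which encodes an RNA-binding protein of nuclear paraspeckles. Levels in these libraries are given below as under shLacZ and under shPSPC1. Each group held 1 library, and the sources used here do not say how many clones or cultures stood behind each.

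EGF family receptors are membrane tyrosine kinases that pair up when a ligand binds. EGFR binds EGF, TGFA and AREG, EGFR and ERBB4 both bind EREG, BTC and HBEGF, and ERBB3 and ERBB4 bind NRG1. ERBB2 has no known ligand and acts as a partner of the other receptors. The ligands are made as membrane proteins and are mostly shed by ADAM proteases, and in lung epithelium the system drives growth and repair.

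The part of a ligand that touches the receptor is the EGF domain, which is held by 3 disulfide bonds between 6 cysteines. The TGFA and BTC transcripts differed between the libraries in an exon that encodes part of this domain. The coding sequences of the domain are shown for EREG, AREG, HBEGF, BTC and TGFA. They come from GENCODE release 29 transcripts (GRCh38), run from the first to the last of the 6 cysteine codons, and have those codons in capitals.
EREG, chr4:74381061-74382675, plus strand: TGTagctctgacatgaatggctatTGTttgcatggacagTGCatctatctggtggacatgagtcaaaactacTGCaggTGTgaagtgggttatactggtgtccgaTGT
AREG, chr4:74449172-74450410, plus strand: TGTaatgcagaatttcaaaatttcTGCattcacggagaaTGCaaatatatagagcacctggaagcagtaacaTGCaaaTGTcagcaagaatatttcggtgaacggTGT
HBEGF, chr5:140335997-140342711, minus strand: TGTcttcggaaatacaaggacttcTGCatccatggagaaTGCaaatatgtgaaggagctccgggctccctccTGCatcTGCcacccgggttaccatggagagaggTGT
BTC, chr4:74750689-74755935, minus strand: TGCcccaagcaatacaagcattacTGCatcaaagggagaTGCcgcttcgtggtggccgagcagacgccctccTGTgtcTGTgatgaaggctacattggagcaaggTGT
TGFA, chr2:70456458-70465692, minus strand: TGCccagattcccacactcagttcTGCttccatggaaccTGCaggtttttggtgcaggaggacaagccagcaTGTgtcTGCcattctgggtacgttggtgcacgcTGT
All 5 stretches were 108 bases long and had the same spacing, with 7, 4, 10, 1 and 8 codons between successive cysteine codons. In each gene the stretch was split by an intron, so that the coordinates span more bases than the sequence.

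Levels are in FPKM, which divides a transcript's fragments by its length in kilobases and by the size of the library, and are summed over the transcripts of a gene. Values after ± are the distance to the bounds of the 95% interval that Cufflinks wrote for each transcript, and they cover error within that library only. For a gene with several transcripts these distances were combined as the root of their summed squares, as if the transcripts were independent. With 1 library in each group no test between groups could be made, and the differences were not checked on replicates. A rule of size took its place. It asked for a value above 0 in both libraries and 1 FPKM or more in the higher one. The log2 ratio of knockdown over control, with a pseudocount of 1, had to be at least 1 in size. The intervals could not overlap, and the log2 ratio had to be at least 1 the same way by a second measure. That measure was the number of fragments implied by FPKM and transcript length, put on the FPKM scale of the longest annotated transcript. In a bulk library, fewer cells that express a gene and less RNA per cell cannot be told apart.

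The intervals implied a depth near 56200000 fragments for shLacZ and 57100000 for shPSPC1. The median log2 ratio over the 11473 genes at 1 FPKM or more in 1 library and above 0 in both was 0.01, and 48.9% of them lay below 0. PSPC1, the targeted gene, stood at 31.5 ± 1.25 FPKM under shLacZ and 17.7 ± 0.858 under shPSPC1, 56.3% of the control level. Its log2 ratio was -0.79, short of the limit of 1. From fragments over the gene span, introns included, it was -0.05 at 0.566 and 0.516 FPKM. These values lie below the pseudocount of 1, which shrinks that ratio. The 6 epithelial and A549 markers EPCAM, KRT8, KRT18, KRT7, ALDH1A1 and AKR1B10 were all above 1 FPKM and summed to 7754 and 7627 FPKM. ALDH1A1 alone stood at 3198 ± 5247 FPKM under shLacZ and 2714 ± 9.28 under shPSPC1, so the control sum is only loosely known. Of 6 leukocyte markers CD68 and CD14 reached 1 FPKM, CD3E was listed at 0 in both libraries, and the list summed to 17.9 and 10.8 FPKM. Of 8 fibroblast and endothelial markers none reached 1 FPKM, COL1A2 was listed at 0 in both libraries, and the list summed to 1.01 and 0.738 FPKM. The part of the CD68 and CD14 difference in the results below was not tested.

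Of the 10 members, 8 reached 1 FPKM in at least 1 library, and ERBB3 and EGF did not. By the rule of size 0 of the 8 were higher and 0 were lower under shPSPC1, against 0.368% and 0.607% of the 11697 genes at 1 FPKM or more in 1 library. The 8 include NRG1, and the 11697 include other genes listed at 0 in 1 library, which the rule could not call. NRG1 was the only member listed at 0 under shLacZ with 1 FPKM or more under shPSPC1, which was the case for 0.992% of the 11697 genes. No member was listed at 0 under shPSPC1 alone, against 0.923% of the genes. Of the 7 members at 1 FPKM that were above 0 in both libraries, 5 had a log2 ratio below 0 and 2 above, with a median of -0.43, and of -0.38 by fragments. No member passed a lower limit of 1.5-fold either, which 1.58% of the genes passed as higher and 2.8% as lower. From annotated transcripts alone the median was -0.02, without EGFR and BTC, which then had no value above 0 in both libraries.

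**Figure D1:**
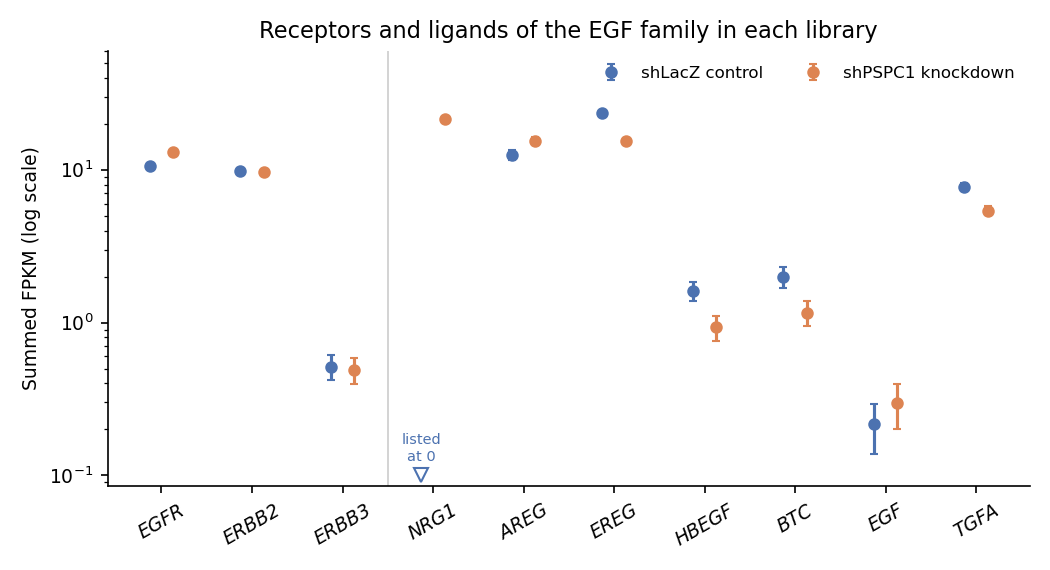
Summed FPKM of the 3 receptors (left of the line) and 7 ligands under shLacZ and under shPSPC1 on a log axis, with bars for the 95% interval within each library. The triangle marks NRG1, listed at 0 under shLacZ against 21.5 FPKM under shPSPC1, and EREG is the highest member of the control at 23.6 FPKM.

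Among the receptors, EGFR and ERBB2 were well above 1 FPKM and ERBB3 was below it. EGFR, the receptor of EGF, TGFA and AREG, stood at 10.6 ± 0.397 FPKM under shLacZ and 13.1 ± 0.306 under shPSPC1, with a log2 ratio of 0.27 (bounds 0.19 and 0.35 from the intervals). ERBB2, the partner receptor, stood at 9.78 ± 0.428 FPKM under shLacZ and 9.61 ± 0.388 under shPSPC1. Its log2 ratio was -0.02 (bounds -0.13 and 0.09). ERBB3, whose kinase is weak and which signals through its partners, stood at 0.515 ± 0.0968 and 0.489 ± 0.0929 FPKM, from 162 fragments under shLacZ and 161 under shPSPC1. The intervals of ERBB2 and of ERBB3 overlapped between the libraries, and those of EGFR did not. ERBB4, the fourth receptor of the family, was listed at 0 under shLacZ and stood at 0.00598 FPKM under shPSPC1.

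The EGFR value depended on how the end of the gene was assembled in each file. EGFR lies on the plus strand of chromosome 7, and its longest annotated transcript, NM_005228.3, has 28 exons and 5600 bases and ends at 55275031 in the files' coordinates. In the control file that transcript carried all of the gene's FPKM, and the other 3 annotated transcripts, which end earlier, were listed at 0. In the knockdown file all 4 annotated transcripts were listed at 0, and a read-based transcript with those 28 exons and their introns carried the signal. It is 9921 bases long and runs 4269 bases past the annotated end. The control file holds the same stretch as a separate assembled transcript of 2 exons and 6408 bases, from 55270368 to 55279260. That transcript ends 4229 bases past the annotated end, stood at 15 FPKM (14.6 to 15.4) and shared no annotated intron, so it was not counted to EGFR.

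By fragments without that piece EGFR had 3251 under shLacZ and 7276 under shPSPC1, a log2 ratio of 1.07. With the piece added to the control, the ratio was -0.24 by fragments and -0.92 by summed FPKM, from 25.6 and 13.1 FPKM. That comparison was chosen after its values were seen. The 25.6 FPKM adds the annotated transcript and the piece, which met 2083 annotated exon bases, each scaled to its own length. Under shPSPC1 the same stretch was counted once, in 1 longer transcript, so the -0.92 does not compare like with like. With the whole knockdown transcript counted but the control piece only where it met the annotated exons, the level was 13.8 FPKM under shLacZ and 19.9 under shPSPC1, a log2 ratio of 0.50. Counted in that way over the annotated gene span, scaled to depth and with no pseudocount, the ratio was 0.41. It was -0.09 (pseudocount of 1) with that transcript, like the control piece, counted only inside the span. That last ratio came from 0.601 and 0.503 FPKM, below the pseudocount, which shrinks it. The ratios of 1.07, 0.50 and 0.41 counted the stretch past the annotated end under shPSPC1 alone. By fragments with that stretch in both libraries the ratio was -0.24, and with it in neither -0.09. The direction for EGFR thus turned with how that stretch was counted. A long strandless piece also covered 334 exon bases at the start of the gene in both files, at 0.966 FPKM over 25573 bases under shLacZ and 1.04 FPKM over 22185 bases under shPSPC1.

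ERBB2 was carried by 2 annotated transcripts under shLacZ and by 1 under shPSPC1. It lies on the plus strand of chromosome 17 from 37844393 to 37884915. NM_004448.2, with 27 exons, stood at 8.66 ± 0.391 FPKM under shLacZ and 9.61 ± 0.388 under shPSPC1. NM_001005862.1, with 30 exons and a start 11861 bases further upstream, stood at 1.12 ± 0.175 FPKM under shLacZ, 11.4% of the gene, and was at 0 FPKM under shPSPC1. No assembled transcript was counted to ERBB2 and no unassigned piece lay in its span in either file. ERBB3, at 56473809 to 56497291 of chromosome 12, plus strand, was carried by NM_001982.3 at 0.341 and 0.290 FPKM, and the remaining 33.8% and 40.8% lay in assembled transcripts whose chain of introns was found in 1 file only.

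NRG1, the ligand of ERBB3, was listed at 0 in 1 file and led the members in the other. It lies on the plus strand of chromosome 8 from 31496820 to 32622558, a span of 1125739 bases with 17 annotated transcripts. In the control library all 17 were listed at 0. In the knockdown library 16 were listed at 0, and NM_013964.3, with 12 exons and 3078 bases from 32405728 to 32622558, stood at 21.5 ± 0.722 FPKM from 3576 fragments. No assembled transcript shared an intron with NRG1 in either file, so no fold can be given.

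Reads over NRG1 were present under shLacZ, in assembled transcripts that lay outside the gene count. A transcript of 85883 bases stood at 2.89 FPKM (2.84 to 2.94) and covered the start of NM_013964.3, with 1 intron and on the minus strand as listed. Strandless transcripts of 70129 bases at 2.49 FPKM (2.43 to 2.54) and of 57205 bases at 5.86 FPKM (5.77 to 5.94) followed, and the last ran 14997 bases past the annotated end. Together 7 such pieces covered 98.1% of the span of NM_013964.3 and all 3078 of its exon bases under shLacZ. The exons make up 3078 of the 216831 bases of that span. In the knockdown library 2 pieces, of 80516 bases at 2.11 FPKM (2.07 to 2.15) and of 31081 bases at 4.27 FPKM (4.18 to 4.37), covered 51.5% of the span and 19.5% of the exon bases.

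Counting every fragment over the span of NM_013964.3 turned the direction of NRG1. The shLacZ library had 37987 fragments there, all in pieces, or 676 for every 1000000 of the library. The shPSPC1 library had 20803, of which 17228 lay in pieces and 3576 in the spliced transcript, or 364 for every 1000000. The knockdown total was 53.9% of the control, a log2 ratio of -0.89, and -1.16 for the pieces alone. With pieces shared out over the exons of NM_013964.3 alone, as if fragments lay evenly along a piece, the level was 5.13 FPKM under shLacZ and 22.1 under shPSPC1, a log2 ratio of 1.91. Of these, 5.13 and 0.579 FPKM came from pieces. Over the 7920 merged exon bases of all 17 transcripts, a longer stretch and so a lower scale, the levels were 3.87 and 9.37 FPKM and the log2 ratio was 1.09. Whether fragments lay evenly along the pieces was not tested.

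Cufflinks also records for each annotated transcript a mark named full read support. That mark was set for 10 of the 17 NRG1 transcripts under shLacZ and for 8 of 17 under shPSPC1, and for NM_013964.3 in both. NM_013964.3 thus carried full read support in the library where its FPKM is listed at 0. These measures of NRG1, all chosen after the contrast was known, differ in direction, and whether the level of spliced NRG1 differed between the libraries cannot be told from the deposited values.

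**Figure D2:**
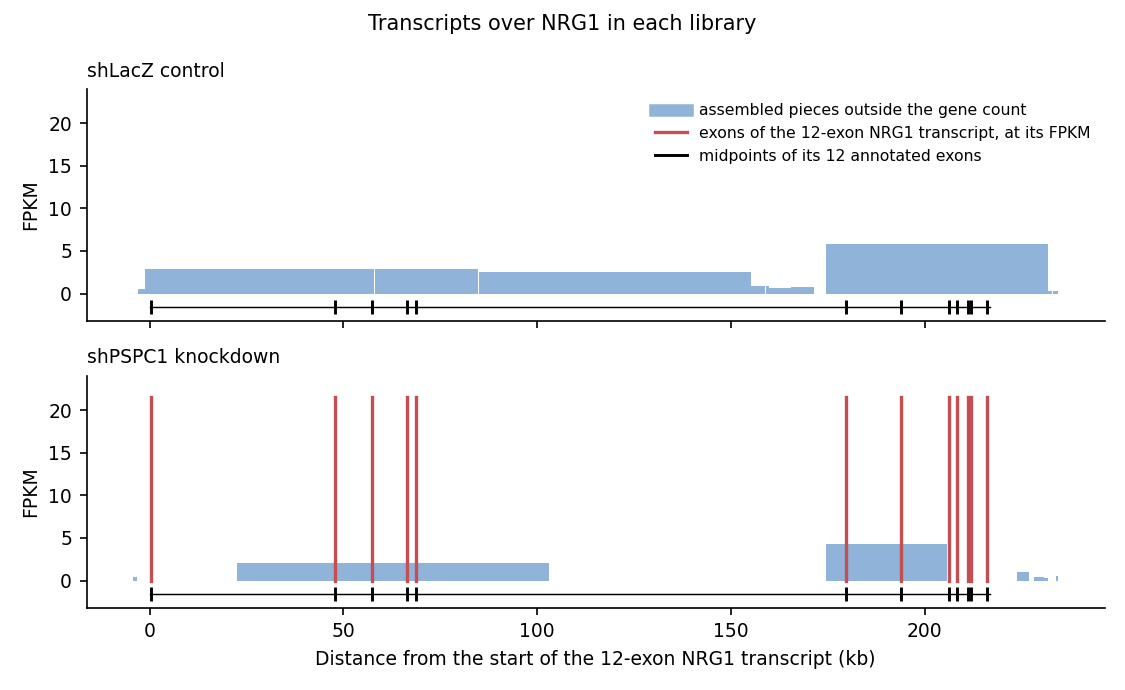
FPKM of transcripts over NRG1 against the distance in kb from the start of NM_013964.3, under shLacZ (top) and under shPSPC1 (bottom). Blue areas are assembled pieces outside the gene count, red lines the exons of NM_013964.3 at 21.5 FPKM, and black marks the midpoints of its 12 exons; the pieces cover 98.1% of the span under shLacZ and 51.5% under shPSPC1.

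NRG1 was not alone in this pattern. In all, 116 genes were listed at 0 under shLacZ with 1 FPKM or more under shPSPC1, and for 34 of them (29.3%) unassigned pieces under shLacZ covered at least 0.5 of the exon bases of the transcript that led under shPSPC1. The reverse held for 26 of 108 genes (24.1%) listed at 0 under shPSPC1. Among protein-coding genes the counts were 14 of 58 and 8 of 59. How common such cover is among all genes was not tested, so these shares cannot be called high or low. By distance of log2 FPKM over the 2 libraries, the protein-coding genes nearest to NRG1 were ABCF2-H2BK1 (0 and 19.4 FPKM), EMC9 (0 and 17.9 FPKM) and H2BC12 (0 and 28.0 FPKM), at distances of 0.14, 0.25 and 0.37. With 2 libraries this likeness says only that these genes are listed at 0 in the same file and have near values in the other.

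Of the ligands listed above 0 in both libraries, EREG and AREG were the most abundant, with log2 ratios on opposite sides of 0. EREG, epiregulin, stood at 23.6 ± 0.613 FPKM under shLacZ and 15.5 ± 0.606 under shPSPC1, 65.9% of the control level. Its log2 ratio was -0.57 (bounds -0.66 and -0.48), and also -0.57 by fragments, from 5918 and 3974. The annotated 5-exon transcript NM_001432.2 carried all of it under shLacZ and 81.0% under shPSPC1, at 12.6 ± 0.505 FPKM. The rest, 2.96 ± 0.334 FPKM, lay in a read-based transcript of identical introns, which begins 500 bases before the annotated start. A strandless piece of 15177 bases at 0.749 FPKM overlapped the gene in the knockdown file only, and with its fragments counted the log2 ratio over the span, scaled to depth and with no pseudocount, was -0.41.

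AREG, amphiregulin, stood at 12.5 ± 0.910 FPKM under shLacZ and 15.4 ± 1.00 under shPSPC1, with a log2 ratio of 0.27 (bounds 0.09 and 0.46). It is the neighbour of EREG on the plus strand of chromosome 4, from 75310853 to 75320726, with EREG at 75230860 to 75254477. The annotation in the files holds a second copy, XM_001125684.4, that starts 160113 bases beyond the end of AREG. It carries the same gene identifier as AREG in both files, and 4 of its 6 exons, the inner ones, have the same lengths of 249, 202, 153 and 112 bases. The copy stood at 19.6 ± 1.27 and 22.7 ± 1.36 FPKM, and how the fragments were split between copies of such like exons was not tested. The sum of both was 32.1 ± 1.56 FPKM under shLacZ and 38.1 ± 1.69 under shPSPC1, a log2 ratio of 0.24 (bounds 0.11 and 0.37). The sum was above EREG in both libraries, whereas AREG alone was below EREG under shLacZ and within its interval under shPSPC1.

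TGFA, transforming growth factor alpha, stood at 7.76 ± 0.476 FPKM under shLacZ and 5.40 ± 0.354 under shPSPC1, 69.6% of the control level. Its log2 ratio was -0.45 (bounds -0.61 and -0.29), and -0.38 by fragments, from 1707 and 1278. It is found at 70674412 to 70781147 of chromosome 2, minus strand. NM_003236.3, the 6-exon transcript, stood at 3.29 ± 0.292 FPKM under shLacZ and 3.95 ± 0.289 under shPSPC1, with intervals that did not overlap. The annotated forms alone, at 3.29 and 5.40 FPKM, gave a log2 ratio of 0.58, so that the direction for TGFA turned with the counting of the assembled forms.

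The other TGFA forms were each found above 0 in 1 library. In the control an assembled transcript without the fourth exon stood at 3.16 ± 0.310 FPKM (40.7% of the gene), and another without the third exon stood at 1.31 ± 0.212 FPKM (16.9%). Neither was in the knockdown file. The fourth exon has 150 bases, a multiple of 3, and encodes 2 of the 6 cysteines of the EGF domain, the fifth and the sixth, and then sequence beyond the domain. Its sequence is given with those cysteine codons in capitals.
TGFA exon 4, chr2:70456339-70456488, minus strand: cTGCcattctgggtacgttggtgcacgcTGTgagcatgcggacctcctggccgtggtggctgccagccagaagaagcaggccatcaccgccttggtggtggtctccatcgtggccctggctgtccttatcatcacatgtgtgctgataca
The third exon has 121 bases, which is no multiple of 3.

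In the knockdown library NM_001099691.2 stood at 1.45 ± 0.204 FPKM (26.9%), and it was listed at 0 under shLacZ. It differs from NM_003236.3 by 3 bases at the start of the third exon, where the splice acceptor lies 3 bases further on. The assembled control transcript without the fourth exon used this shorter exon of 118 bases as well. The junctions of exons 2 and 3 are shown with the 3 extra bases in capitals.
NM_003236.3: ccccgctgagtgCAGacccgcccgtgg
NM_001099691.2: ccccgctgagtgacccgcccgtgg
How Cufflinks shared fragments between forms that differ by 3 bases was not tested.

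**Figure D3:**
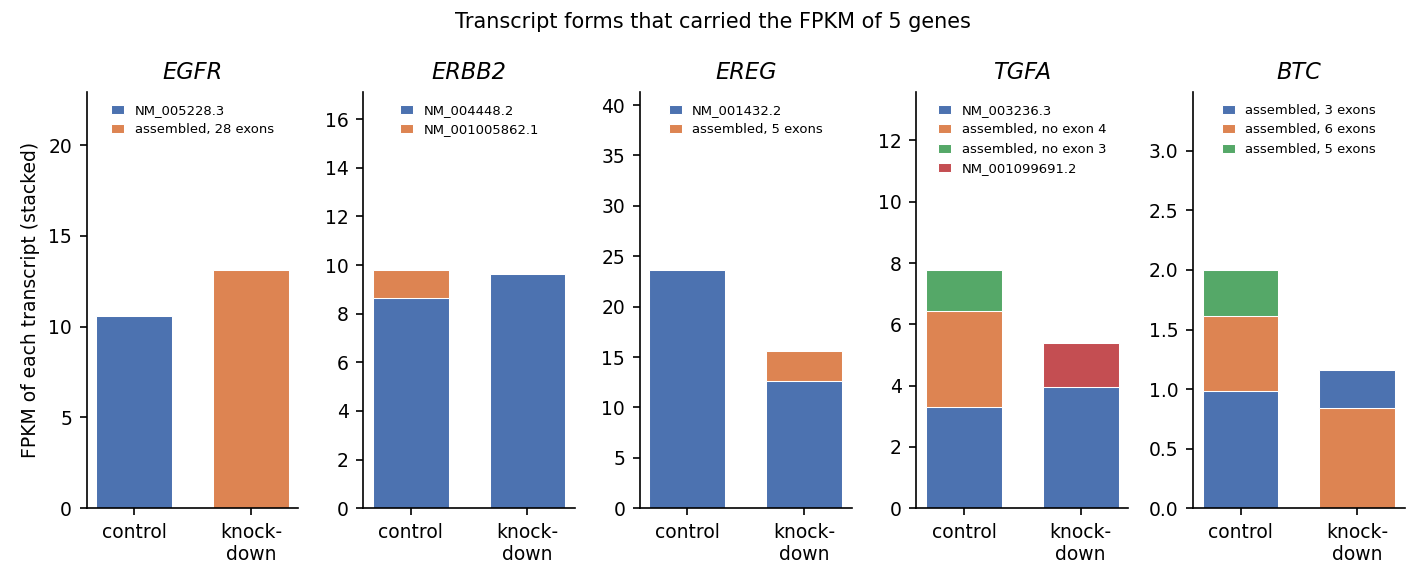
FPKM of each transcript, stacked, for EGFR, ERBB2, EREG, TGFA and BTC under shLacZ and under shPSPC1, with a separate axis from 0 for each gene. In TGFA the forms without exon 3 or exon 4 stood under shLacZ alone and NM_001099691.2 under shPSPC1 alone, and in EGFR the annotated transcript of the control was replaced by an assembled one.

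BTC, betacellulin, stood at 2.0 ± 0.314 FPKM under shLacZ and 1.16 ± 0.220 under shPSPC1, with a log2 ratio of -0.47 (bounds -0.77 and -0.17). It is found at 75671448 to 75719882 of chromosome 4, minus strand, and its only annotated transcript was listed at 0 in both libraries. All assembled forms ran past the annotated end of the gene on its minus strand, by 1434 bases under shLacZ and 1320 in the knockdown file. The form with all 6 exons stood at 0.635 ± 0.167 FPKM under shLacZ and 0.842 ± 0.170 under shPSPC1, with intervals that overlapped. A form of the last 3 exons stood at 0.982 ± 0.227 and 0.321 ± 0.140 FPKM, and the total was 257 and 155 fragments.

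Another BTC form was found under shLacZ alone, at 0.380 ± 0.139 FPKM from 52 fragments. It had 5 exons and lacked the fourth, whose length is a multiple of 3 and which, like the fourth exon of TGFA, encodes the fifth and the sixth cysteine of the EGF domain and then sequence beyond it. The sequence is given with those 2 cysteine codons in capitals.
BTC exon 4, chr4:74750573-74750719, minus strand: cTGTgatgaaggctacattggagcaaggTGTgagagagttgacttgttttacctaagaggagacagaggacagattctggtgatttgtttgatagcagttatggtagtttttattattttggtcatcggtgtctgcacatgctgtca
In both genes the fourth exon, skipped in a control form, thus held 2 of the 6 cysteine codons and kept the reading frame by its length. This did not hold for the other TGFA form of the control, at 1.31 FPKM. That form lacked the third exon, whose length is no multiple of 3. With 52 fragments behind the BTC form, its lack in the knockdown file, where the whole gene had 155, was not tested further.

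HBEGF, heparin-binding EGF-like growth factor, stood at 1.61 ± 0.229 FPKM under shLacZ and 0.934 ± 0.173 under shPSPC1, from 199 and 117 fragments. The log2 ratio was -0.43 (bounds -0.69 and -0.18) and the intervals did not overlap. Its annotated 6-exon transcript, at 139712428 to 139726188 of chromosome 5, minus strand, was the only form in both files. EGF itself, at 110834040 to 110934118 of chromosome 4, plus strand, was the lowest member above 0 in both libraries. It stood at 0.217 ± 0.0781 and 0.299 ± 0.0965 FPKM from 44 and 62 fragments, with intervals that overlapped. Its 3 annotated transcripts were listed at 0 in both libraries and all of its FPKM lay in assembled forms of 14 to 23 exons whose chains of introns were found in 1 file only.

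The order of the members was nearly the same in both libraries apart from NRG1. In the control it ran EREG, AREG, EGFR, ERBB2, TGFA, BTC, HBEGF, ERBB3, EGF and NRG1, and BTC and HBEGF were the only neighbours whose intervals overlapped. In the knockdown library NRG1 came first and the other members kept that order, with overlap between EREG and AREG and between BTC and HBEGF. FPKM is scaled to length, so that levels can be set side by side between genes, but the EGFR, NRG1 and AREG values carry the limits given above. A count over the gene span, scaled to depth, took a gene's own transcripts whole and pieces only inside the span. Its log2 ratios without a pseudocount were -0.79 for HBEGF, -0.77 for BTC, -0.44 for TGFA, 0.29 for AREG, 0.47 for EGF, -0.03 for ERBB2 and for ERBB3, 0.41 for EGFR, -0.41 for EREG and -0.90 for NRG1 over its whole span. With its own transcript also cut at the span, EGFR stood at 0.601 and 0.503 FPKM, a log2 ratio of -0.09 with a pseudocount of 1, which shrinks it.

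**Figure D4:**
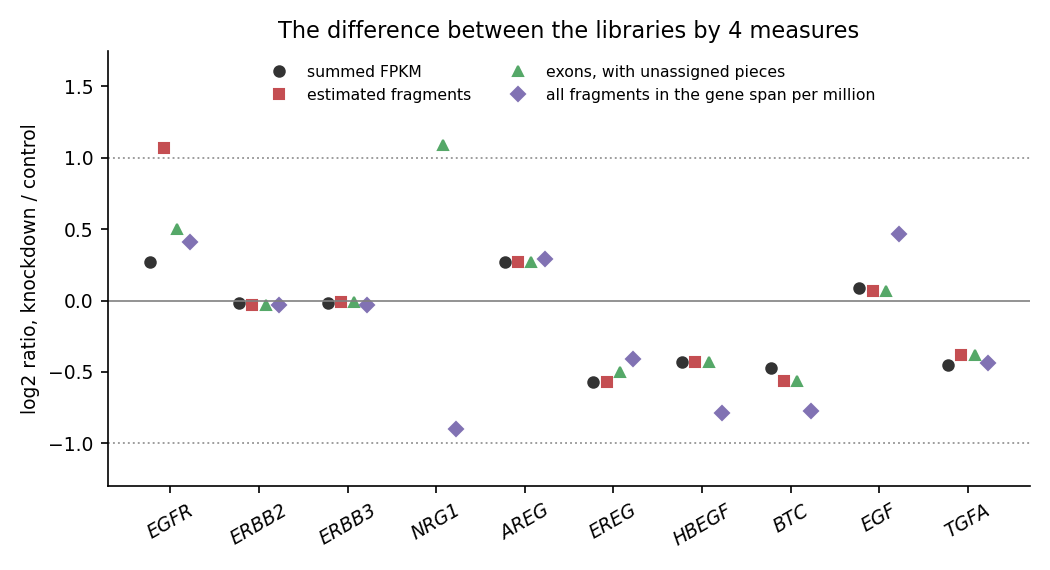
Log2 ratio of knockdown over control for each member by 4 measures: summed FPKM, estimated fragments, fragments over the annotated exons with unassigned pieces shared out (these 3 with a pseudocount of 1), and fragments over the gene span scaled to depth (no pseudocount). The last 2 count a gene's own transcripts whole, and pieces only where they meet the exons or the span. NRG1 has no value by the first 2. Dotted lines mark ratios of 1 and -1; the 4 measures have 1 sign for each of the other ligands, while NRG1 stands at 1.09 by the merged exons and -0.90 by span, and EGFR reaches 1.07 by estimated fragments.

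Genes around the receptors showed no difference past the rule of size. Of 60 genes in 7 lists drawn up by role, 53 reached 1 FPKM in 1 library, all of them above 0 in both. Of these 0 were higher and 0 lower by the rule, against 0.368% and 0.607% of the 11697 genes at 1 FPKM or more in 1 library. At those shares a list of 53 genes would hold few calls or none, so the lack of calls says little about these genes. Their median log2 ratio was 0.02, and -0.01 by fragments, against 0.01 and 0.01 over all genes tested. Among other family genes, 2 of 5 reached 1 FPKM: the neuregulins NRG4 (1.47 ± 0.227 and 1.89 ± 0.255 FPKM) and NRG2 (0.882 ± 0.146 and 1.35 ± 0.229 FPKM). All 5 genes of ligand shedding were expressed, with a median of 0.02. The proteases ADAM9 (115 ± 1.44 and 104 ± 1.36 FPKM) and ADAM10 (53.9 ± 1.02 and 58.8 ± 1.05 FPKM), which cut many membrane proteins, were the most abundant.

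Among receptor adaptors, 5 of 6 genes reached 1 FPKM with a median of -0.01, led by SHC1 (41.7 ± 1.54 and 41.6 ± 1.29 FPKM) and GRB2 (37.2 ± 1.13 and 40.3 ± 0.953 FPKM), which link the receptors to RAS. The 10 genes from RAS to ERK had a median of 0.05, and HRAS, a small GTPase that activates the RAF kinases, stood at 39.7 ± 1.79 and 38.0 ± 1.74 FPKM. MAP2K1, a kinase upstream of ERK, was singled out after its values were seen because its measures disagreed: it stood at 6.46 and 19.8 FPKM, a log2 ratio of 1.48, but of -0.98 by fragments. The 8 genes of PI3K and AKT had a median of -0.02, and of -0.12 by fragments, with AKT1 at 48.2 ± 1.43 and 43.4 ± 1.62 FPKM and AKT2 at 22.3 ± 0.556 and 32.4 ± 0.904 FPKM, the latter with log2 ratios of 0.52 and -0.16 by fragments.

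Among genes of receptor down-regulation and feedback, 14 of 16 reached 1 FPKM and the median was 0.02, with 7 below 0. The most abundant were DUSP4, a phosphatase of MAP kinases, at 38.2 ± 0.836 and 38.1 ± 0.834 FPKM, and ERRFI1, which binds and inhibits EGFR, at 17.1 ± 0.641 and 26.4 ± 0.790 FPKM. ERRFI1 had a log2 ratio of 0.60 by both measures, short of the limit of 1. DUSP5, a nuclear phosphatase of ERK that was chosen after its values were seen, stood at 8.56 ± 0.507 and 14.8 ± 0.663 FPKM (0.73). Of 10 genes induced through ERK, 9 reached 1 FPKM with a median of -0.10, and 6 lay below 0. The most abundant were IER3 (77.6 ± 2.26 and 76.2 ± 2.23 FPKM) and CCND1, which encodes cyclin D1, at 66.8 ± 1.07 and 41.3 ± 0.837 FPKM. The log2 ratio of CCND1 was -0.68 by both measures, also short of the limit.

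**Figure D5:**
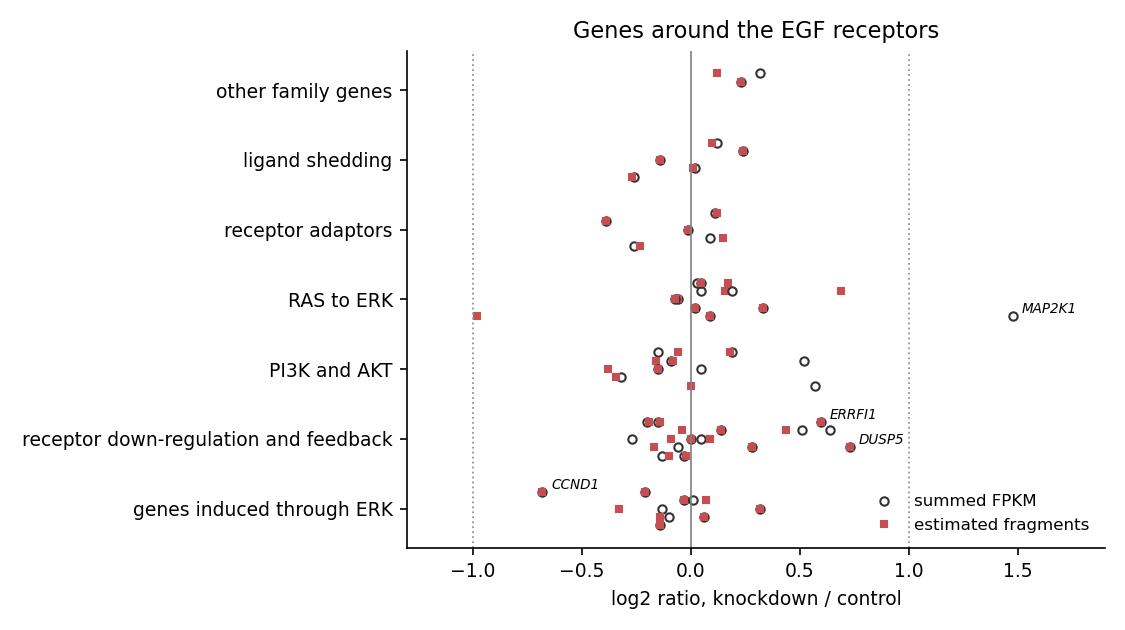
Log2 ratio of knockdown over control for the 53 genes of 7 role lists at 1 FPKM or more in 1 library, by summed FPKM (open circles) and estimated fragments (red squares), 1 point of each kind for each gene. Dotted lines mark ratios of 1 and -1; MAP2K1 passes 1 by summed FPKM alone, and CCND1 stands lowest of the ERK list at -0.68.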

How the data were processed

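RNA from 1 shLacZ and 1 shPSPC1 library of A549 cells was analysed from 1 deposited transcript file each. Cufflinks 2.1.1, TopHat2 2.0.7 and CASAVA 1.8.2 are listed in the submitters' processing notes, with no role or order. The deposited files give an FPKM and a 95% interval for each transcript, which the authors made with Cufflinks per the source column of those files. Strand and poly(A) selection and the genome build are not given in the sources used here; scaffold names are those of GRCh37, and gene coordinates are the files' own. Replicates, pairing and tests were not available with 1 library in each group.

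Annotated transcripts were joined to symbols by RefSeq accession, gene identifier or shared intron, and 1814 (shLacZ) and 1802 (shPSPC1) had no symbol. Assembled transcripts joined the gene sharing the most introns. Strandless ones, 29208 and 36255, stayed unassigned. Depth and a mean fragment length of 162 and 166 bases came from the intervals of transcripts alone at their locus, which implied whole fragment numbers within 0.02 for 95.5% and 95.7% of those with 5 to 200 fragments. At this depth 1 FPKM over 2000 bases stands for about 103 and 105 fragments. Effective length was length minus mean fragment length plus 1, and at least 10 bases. Python 3.11.15 with numpy 2.4.6 was used, and the scripts were tested on simulated data.

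Members and lists were chosen with earlier results of these data known. The genes named are all members, PSPC1, the 2 most abundant and any gene past the rule of size in each list, and the 3 nearest to NRG1, except for items that are not reported here. Other settings numbered 15 for all genes, 2 of them chosen after seeing the data, with others for EGFR, NRG1 and AREG. Protein sequences were planned but coding sequence from GENCODE release 29 (GRCh38) was used, and none was taken for NRG1.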

Additional observations from a re-analysis of the deposited data

How the results depend on the processing

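With 1 library in each group no replicate could be left out. No paired analysis was possible because each group holds 1 library. The count of members past the rule of size was 0 higher and 0 lower in the results and under most alternatives, and 1 higher by estimated fragments (EGFR) and with unassigned pieces shared out over exons (NRG1). The median of the members, -0.43, moved to -0.02 from annotated transcripts only, with intron chains in both files only, with no filter on low values, at 5 FPKM or more in 1 library, and with all pieces shared out over the gene span. It was 0.17 from the most abundant transcript only. Several of these settings also change which members are counted. Over the span only ERBB2 (1.09 and 1.06 FPKM), AREG (1.39 and 1.70 FPKM) and EREG (4.49 and 3.33 FPKM) reached 1 FPKM, and that median was taken over these alone. Under the settings with a value, the log2 ratios of single members (span totals scaled to depth, with no pseudocount, not included) ranged from -0.86 to -0.34 for EREG, from 0.18 to 0.36 for AREG, from -0.78 to -0.13 for HBEGF and from -0.77 to -0.03 for BTC, with no change of sign. They ranged from -0.92 to 1.07 for EGFR and from -0.52 to 0.58 for TGFA, with 3 changes of sign each. The -0.92 adds the FPKM of the EGFR transcript and piece of the control, and the 1.07 leaves that piece out. ERBB2 ranged from -0.03 to 0.13 and ERBB3 from -0.07 to 0.01, with 2 changes of sign and 1. The cause was not tested. The -0.13 of HBEGF and the -0.03 of BTC come from span values far below the pseudocount of 1. These were 0.260 and 0.151 FPKM for HBEGF, and 0.0537 and 0.0345 FPKM for BTC. With no pseudocount, fragments over the span gave -0.79 for HBEGF and -0.77 for BTC. Sharing out pieces, adding the EGFR piece, using the exons of NM_013964.3 alone and pooling AREG with its copy were chosen after seeing the data.

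Over all genes, 43 were higher and 71 lower by the rule. These counts were 104 and 152 with a pseudocount of 0.1, 112 and 164 with 0.01, 100 and 114 by estimated fragments, 289 and 313 from annotated transcripts only, 81 and 109 from the most abundant transcript, 194 and 196 with intron chains in both files only, and 185 and 328 with a limit of 1.5-fold. They were 28 and 58 with stranded assembled transcripts in the exons, 107 and 104 with pieces shared out over exons, and 34 and 29 with pieces shared out over the span. Rescaled to a fixed sum without mitochondrial genes they were 54 and 52, so that the excess of lower genes was not kept under that scaling or the last 2. ERBB3, EGF, HBEGF and BTC, with at most 257 fragments in a library, are limited by depth.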
